A study of Rattus norvegicus with 6 samples.

Results

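The genes described are 9 carriers of glucose and lactate in the heart primordium of the rat embryo: the facilitative glucose transporters Slc2a1 (GLUT1), Slc2a2 (GLUT2), Slc2a3 (GLUT3), Slc2a4 (GLUT4) and Slc2a8 (GLUT8), the monocarboxylate transporters Slc16a1 (MCT1), Slc16a3 (MCT4) and Slc16a7 (MCT2), and Bsg (basigin). They were taken by gene symbol from the array, which held 17822 genes with a symbol. Each of the 9 had 1 probe, and 8 of the 9 could be tested. Heart primordia were from embryos on embryonic day 10, of a strain given in the labels as Wister rat, with no treatment in either group. The pre-heartbeat group (3 arrays) had a central part that was still flat, and the post-heartbeat group (3 arrays) had a raised central part. The study's definition also names the number of somites, with adjoining ranges and the higher range after heartbeat initiation. The groups are thus defined by shape and somite number rather than by a recording of contraction, and are close in age. Developmental stage and heartbeat initiation cannot be told apart in this comparison. The study states that the replicates in each group are biological; whether several primordia were pooled for an array is not stated. The comparison asks whether transcripts for the entry of glucose and the passage of lactate differ after heartbeat initiation.

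Glucose enters cells down its gradient through the GLUT proteins. GLUT1 and GLUT3 supply most embryonic cells, GLUT4 moves to the surface of muscle and fat cells in response to insulin and contraction, and GLUT2 is a low-affinity carrier of liver, pancreas, gut and visceral endoderm. Lactate crosses the membrane with a proton through the MCT proteins. MCT1 and MCT2 serve uptake as well as release, MCT4 is the exporter of highly glycolytic cells, and basigin is the partner that brings MCT1 and MCT4 to the membrane. Slc2a1 and Slc16a3 are known targets of the hypoxia-inducible factor HIF-1, which the study concerns.

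After heartbeat initiation, Slc2a4 was 1.63-fold and Slc16a3 1.53-fold higher, and for both every post-heartbeat array lay above every pre-heartbeat array. Of all probes 5.38% were higher and 6.14% lower without overlap. Slc2a1 differed by -0.08 and Bsg by 0.05 on the log2 scale, within the spread between arrays. Slc2a3 (-0.34) and Slc16a1 (-0.46) had lower means with overlapping groups, Slc2a8 had a higher mean (0.74) with overlapping groups, Slc2a2 spread 14.3-fold over the arrays, and Slc16a7 was near background. None of the 8 tested members passed limma with Benjamini-Hochberg adjustment over 19299 probes (adjusted p from 0.163 up), where 0.14% of all probes were called in either direction. At an unadjusted limma p under 0.05 were 2 of the 8, against 7.01% of all probes. The methods' test with the same adjustment called 0 members.

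The probes that read the members differ in how often they were spotted: those of Slc2a1, Slc2a4 and Slc16a7 had 10 spots on each array and the others 2. The probes are 60 bases long, and the first 30 bases are shown for the members that the results turn on, the probe of the main embryonic glucose carrier beside that of GLUT4, and the probe of MCT1 beside that of MCT4, to show which stretch of each transcript was measured. Positions were taken from the annotation of the array, which uses rn4; which exon or untranslated region each probe lies in was not determined here.
Slc2a1, chr5:139718779-139718838, plus strand: tctcctgtgcactgagggccagacaaacac
Slc2a4, chr10:56786861-56786920, minus strand: taccaacactttcttgttcccctccaggaa
Slc16a1, chr2:199879777-199879836, plus strand: cagagacactgtgtggttagaagtaattgg
Slc16a3, chr10:110163119-110163178, plus strand: tttctgggcagtggtctgttcaccctgagt
The probe of Slc2a8 covers 504 bases of the genome on chromosome 3, more than its own 60, so it crosses at least 1 intron.

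Values below are log2 of the processed signal relative to the 75th percentile of the same array, in the order of replicates 1, 2 and 3. They compare arrays for 1 probe and not 1 gene with another, because probes differ in brightness for the same amount of RNA. The arrays lay on 2 slides, with pre-heartbeat 1, post-heartbeat 1 and post-heartbeat 2 on slide 1 and the others on slide 2. Between the slides 18.3% of all tested probes passed limma at an adjusted p of 0.05, far more than between the groups, so differences with the slide as a block and within each slide are given where they matter. All 12 cardiac muscle markers were well above background on all 6 arrays, as the label of the tissue implies. The summed signal of these markers, in multiples of the 75th percentile, was 399 to 675 before and 740 to 885 after heartbeat initiation. Over the same arrays the summed signal of 15 endoderm and yolk sac markers was 53.5 to 57.7 against 34.9 to 47.2, that of 8 endothelial markers 16.0 to 17.4 against 11.3 to 12.8, and that of 7 neural markers 6.89 to 7.76 against 2.73 to 3.28. These sums rest largely on their brightest probes, Ttr, Kdr and Otx2. Without them the sums were 9.50 to 25.1 against 10.8 to 18.0 for endoderm, 2.725 to 3.35 against 2.44 to 2.721 for endothelium and 0.946 to 1.68 against 0.677 to 1.15 for the neural list, so that the endoderm and neural sums then overlapped and the endothelial sums nearly met. Erythroid markers (2.12 to 4.06 against 3.27 to 5.77) and paraxial mesoderm markers (46.6 to 57.2 against 53.3 to 63.8) overlapped between the groups. Without their brightest probes, Hba-a2 and Hes7, they did not overlap (0.651 to 1.49 against 1.69 to 1.91, and 21.7 to 24.1 against 25.1 to 26.7). The erythroid sum then rested largely on Hbb. Of 5 erythroid markers tested, 3 had higher means and 2 lower, Klf1 (-0.25) and Alas2 (-0.61). The part of these cell types in the differences below was not tested, and in whole primordia more RNA per cell and more cells of a type cannot be told apart.

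**Figure D1:**
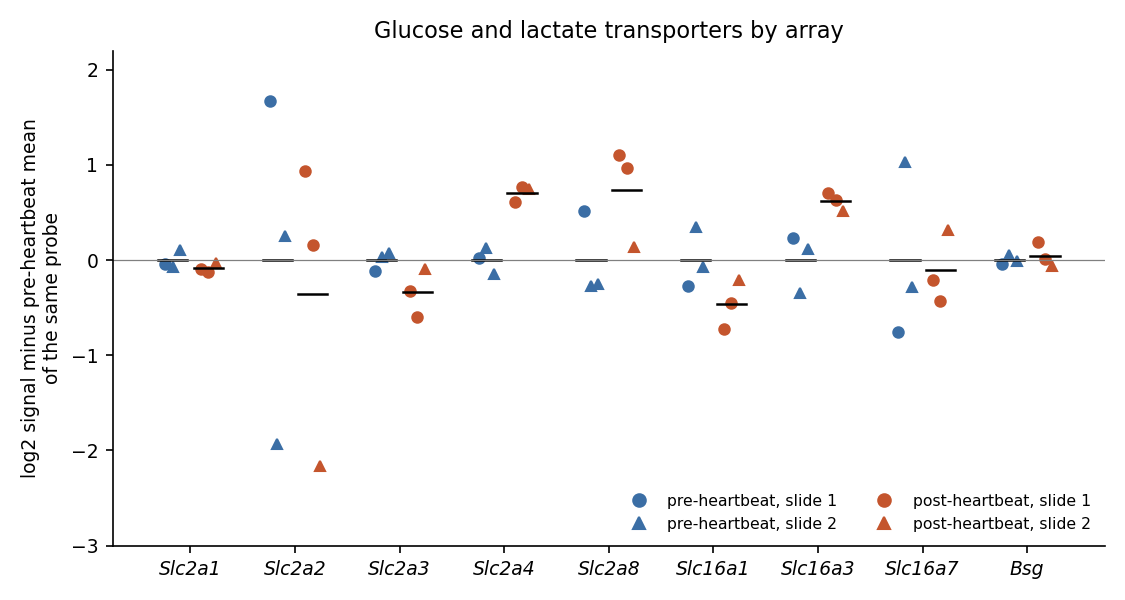
Log2 signal of each member on each array (vertical axis), relative to the pre-heartbeat mean of the same probe, for the 9 members (horizontal axis). Blue points are pre-heartbeat and red points post-heartbeat arrays, circles are slide 1, triangles are slide 2, and the bars are group means; in Slc2a4 and Slc16a3 the groups are separate, and in Slc2a2 the arrays spread over 3.84 log2 units.

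Slc2a1, the ubiquitous carrier of basal glucose uptake, measured 4.96, 4.93 and 5.11 before heartbeat initiation and 4.91, 4.88 and 4.97 after. The groups overlapped, and the whole range over the 6 arrays was 1.17-fold. The means were 5.0 ± 0.09 and 4.92 ± 0.05 (SD, n = 3), a difference of -0.08 (SE 0.13, limma adjusted p = 0.876). The 95% interval of the fold was 0.763 to 1.17, so these arrays leave room for a modest difference in either direction. Slc2a1 was as steady within the slides, with differences of -0.07 and -0.05.

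Slc2a3, the high-affinity carrier of neurons and of the early embryo, measured 0.93, 1.07 and 1.11 before and 0.71, 0.44 and 0.95 after heartbeat initiation. Post-heartbeat 3 lay just above pre-heartbeat 1, and the other post-heartbeat arrays lay below all pre-heartbeat arrays. The difference was -0.34 (SE 0.17, limma adjusted p = 0.845), and it was -0.35 within slide 1 and -0.14 within slide 2. Of 5 neural markers tested, Otx2 and Hesx1, regulators of the anterior neural plate, were lower in the same arrays without overlap. They differed by -1.56 each (limma adjusted p = 0.0199 and 0.0829), and of all probes 6.14% were lower without overlap. Sox2 (-0.21), Neurog2 (-0.27) and Pou3f1 (0.22) overlapped, the last with a higher mean. The part of these markers in the difference of Slc2a3 was not tested.

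Slc2a4, the insulin-responsive carrier of striated muscle, measured -4.45, -4.34 and -4.62 before and -3.86, -3.71 and -3.73 after heartbeat initiation. All 10 spots were well above background on each of the 6 arrays, at processed signals of 57.1 to 129 intensity units, which is dim. The 3 post-heartbeat arrays were all higher than the 3 pre-heartbeat arrays, on both slides. The means were -4.47 ± 0.14 and -3.77 ± 0.09 (SD, n = 3), a difference of 0.70 (SE 0.14, 95% interval 0.37 to 1.04) with a limma adjusted p of 0.163. Blocking on the slide gave 0.71 (limma adjusted p = 0.0649; in this fit 1.62% of all probes were called), and the differences within the slides were 0.67 and 0.75. Over 16 alternatives the adjusted p ran from 0.0649 to 0.951. With normexp background correction, which adds an offset to dim signals, the difference was 0.34. All 12 cardiac muscle markers had higher means after heartbeat initiation, 7 of the 12 without overlap, against 5.38% of all probes. Tnnt2, Actc1, Nkx2-5, Gata4 and Ttn overlapped. The part of these markers in the difference of Slc2a4 was not tested.

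Slc2a8, a carrier held mostly inside the cell, measured -4.86, -5.65 and -5.63 before and -4.27, -4.41 and -5.24 after heartbeat initiation. The arrays of slide 2 were low in both groups, and post-heartbeat 3 lay below pre-heartbeat 1. The difference of 0.74 (SE 0.33, 95% interval -0.03 to 1.51) had a limma adjusted p of 0.751. Blocking on the slide brought it to 0.46 (limma adjusted p = 0.197), with 0.52 within slide 1 and 0.39 within slide 2. Between the slides 18.3% of all tested probes were called. Slc2a8 was the 1 member of 8 among these, with slide 2 minus slide 1 at -0.99 (limma adjusted p = 0.0133). On pre-heartbeat 2, 1 of its 2 spots was well above background.

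Slc2a2, the low-affinity carrier, measured -1.69, -5.29 and -3.10 before and -2.43, -3.21 and -5.52 after heartbeat initiation. Pre-heartbeat 1 was the highest array, and pre-heartbeat 2 and post-heartbeat 3, both on slide 2, were far below the rest, so the spread within each group (SD 1.82 and 1.61) exceeded the difference of -0.36 between them (SE 1.07, limma adjusted p = 0.931). The fit blocked on the slide gave -1.23 (SE 0.52, limma adjusted p = 0.493), and within the slides it was -1.13 and -1.33. The direction turned without pre-heartbeat 1 (0.48) and without post-heartbeat 3 (0.55). The mean log2 signal of the endoderm and yolk sac markers was -0.71, -1.68 and -0.99 before and -1.10, -1.15 and -1.75 after heartbeat initiation. Pre-heartbeat 2 and post-heartbeat 3 were the lowest 2 arrays for Slc2a2 and for 11 of these 15 markers, among them Afp and Apoa4, secreted products of visceral endoderm. This comparison was chosen after the values had been seen, rests on 6 arrays and carries no test. Ttr, the carrier of thyroid hormone that made up most of the summed signal, did not share that order, measuring 5.01, 5.46 and 5.36 against 4.63, 4.87 and 4.59.

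**Figure D2:**
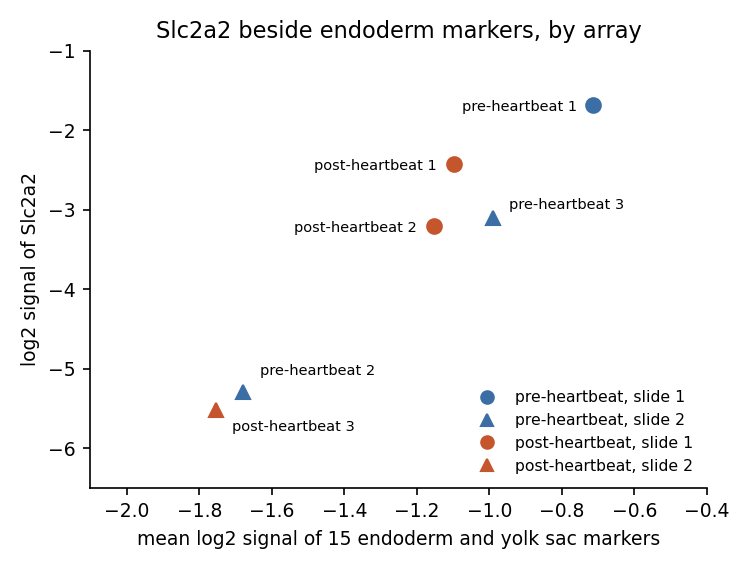
Log2 signal of Slc2a2 (vertical axis) against the mean log2 signal of 15 endoderm and yolk sac markers (horizontal axis), both relative to the array's 75th percentile, with 1 point per array. Colors mark the groups and shapes the slides; pre-heartbeat 2 and post-heartbeat 3 lie lowest on both axes, and pre-heartbeat 1 highest.

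Slc16a3, the lactate exporter MCT4, measured 4.44, 3.87 and 4.32 before and 4.91, 4.84 and 4.72 after heartbeat initiation. The groups did not overlap, and pre-heartbeat 2 lay apart at the lower end. The means were 4.21 ± 0.30 and 4.82 ± 0.10 (SD, n = 3), a difference of 0.62 (SE 0.18, 95% interval 0.18 to 1.05) with a limma adjusted p of 0.390. Blocked on the slide it was 0.53, a fold of 1.45 (limma adjusted p = 0.240; 0.240 to 0.9999 over 16 alternatives), and the differences within the slides were 0.44 and 0.63. Without pre-heartbeat 2 the difference was 0.45.

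Slc16a1, the widely expressed carrier MCT1, measured 2.12, 2.73 and 2.32 before and 1.67, 1.94 and 2.19 after heartbeat initiation. Post-heartbeat 3 lay above pre-heartbeat 1, while on each slide the post-heartbeat arrays were below the pre-heartbeat arrays. The difference was -0.46 (SE 0.22, 95% interval -0.97 to 0.05, limma adjusted p = 0.806), with -0.31 within slide 1 and -0.34 within slide 2. Slc16a7, the high-affinity carrier MCT2, measured -6.89, -5.11 and -6.42 before and -6.34, -6.57 and -5.83 after heartbeat initiation. Its probe was well above background on pre-heartbeat 2 and post-heartbeat 3 only, with 10 and 9 of 10 spots, against 1 or 2 of 10 on the other arrays, so it was not tested and no fold is given.

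Bsg, the chaperone of MCT1 and MCT4, measured 3.67, 3.77 and 3.71 before and 3.90, 3.72 and 3.65 after heartbeat initiation. The groups overlapped and the range over the 6 arrays was 1.19-fold. The difference was 0.05 (SE 0.14, 95% interval -0.28 to 0.37, limma adjusted p = 0.931), and its sign turned without post-heartbeat 1 (-0.026). Emb (embigin), a related chaperone of monocarboxylate transporters, was 4.17 ± 0.35 before and 3.75 ± 0.10 after (SD, n = 3). The difference was -0.41 (limma adjusted p = 0.816).

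The selection used in the study's methods, at least 1.5 fold with an unadjusted p under 0.05 in a pooled comparison of the means, held 2 of the 8 tested members as higher, Slc2a4 and Slc16a3, and 0 as lower. Over all probes it held 1.89% as higher and 1.15% as lower. Slc2a4 stayed in the selection in all 6 runs that left out 1 array, and Slc16a3 in 1 of the 6, the run without pre-heartbeat 1. The groups did not overlap in the same 2 of 8 members (25%), both higher, against 5.38% of all probes higher and 6.14% lower without overlap. Exact permutation tests (two-sided) gave p = 0.1 for Slc2a4 and for Slc16a3, the smallest value that 3 arrays against 3 allow. The median log2 difference was -0.02 over the 8 members and -0.03 over all tested probes.

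**Figure D3:**
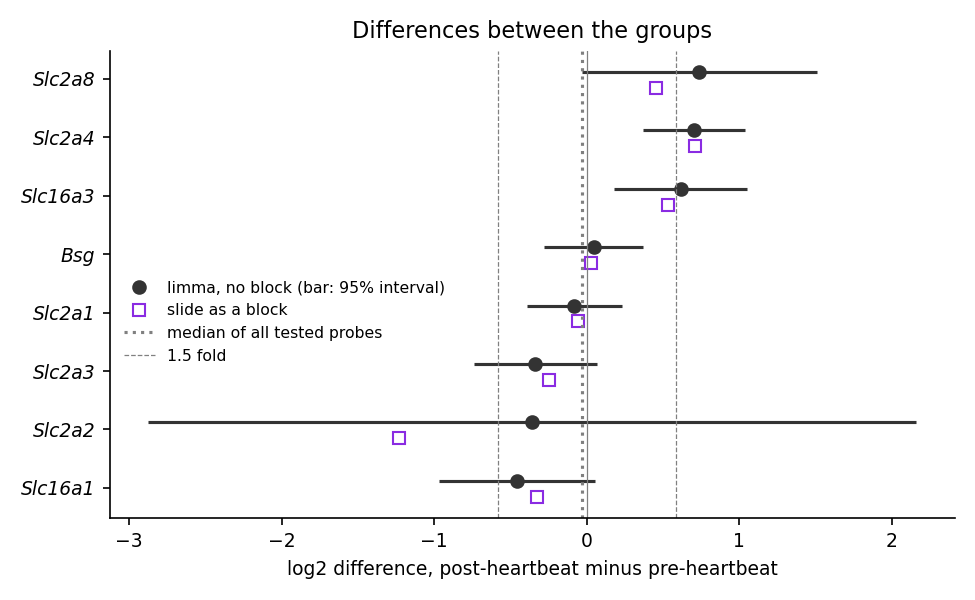
Log2 difference, post-heartbeat minus pre-heartbeat (horizontal axis), for the 8 tested members. Filled circles with bars are limma estimates with 95% intervals, open squares are estimates with the slide as a block, the dotted line is the median of all tested probes (-0.03) and the dashed lines mark 1.5 fold; the intervals of Slc2a4 and Slc16a3 lie above 0, and that of Slc2a2 is the widest.

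Members of a family differed in the sign of their differences, and this can be read from the relation of a pair of probes on the same array, which does not depend on how arrays were scaled. The log2 difference between the probes of Slc16a3 and Slc16a1 was 2.32, 1.13 and 2.0 before and 3.24, 2.90 and 2.53 after heartbeat initiation; only its change has a meaning, not its size. All post-heartbeat arrays were above all pre-heartbeat arrays, and the exporter gained 2.11-fold on MCT1. Between Slc2a4 and Slc2a1 the change was 1.72-fold, between Slc2a4 and Slc2a3 2.06-fold, and between Slc16a3 and Bsg 1.49-fold, each without overlap of the groups. Between Slc2a3 and Slc2a1 it was -0.26 on the log2 scale, with overlap. These pairs were chosen after the values had been seen and have no test. Slc2a4 and Slc16a3 were already without overlap, so the separation of their pairs is not an independent result. The pairs with Slc2a4 do depend on the background correction. With normexp Slc2a4 differed by 0.34, Slc2a1 by -0.06 and Slc2a3 by -0.33. Slc16a3 (0.62), Slc16a1 (-0.46) and Bsg (0.06) differed with normexp much as without it.

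Other genes of the pathway were counted from 7 fixed lists with 50 tested genes. In these lists 0 genes passed limma with adjustment over all probes, 13 had an unadjusted limma p under 0.05 (7.01% over all probes), and 4 were in the methods' selection (3.04% over all probes). Of 7 other GLUT genes, 4 were tested. Slc2a6 (GLUT6) differed by 0.64 (SE 0.15, limma adjusted p = 0.241). Slc2a12 (GLUT12), a second insulin-responsive carrier, differed by -0.63 (SE 0.17, limma adjusted p = 0.304). Both were without overlap and in the methods' selection. The probe of Slc2a6 was dim, with 1 spot on each array, and with normexp it differed by 0.33. Slc2a10, also dim, was 0.54 higher without overlap (limma adjusted p = 0.372) and was not in the selection. Of all probes 5.38% were higher and 6.14% lower without overlap. The direction of Slc2a13, a myo-inositol carrier, turned with the slide as a block, so that 3 of the 4 were higher without and 2 of 4 with it. Slc2a5, Slc2a7 and Slc2a9 were not well above background on any array. Of the sodium-dependent glucose carriers 0 were tested, and the SWEET gene Slc50a1 differed by -0.17.

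Of 14 further monocarboxylate genes, 6 were tested, with a median difference of 0.13 and 0 in the methods' selection. Slc16a8 (MCT3), a lactate carrier known from the retinal pigment epithelium, was 0.48 higher without overlap (limma adjusted p = 0.580). Its probe was dim, and with normexp it differed by 0.21. Emb was the lowest of the list. The mitochondrial pyruvate carriers, which take the alternative route of pyruvate into the mitochondrion, were measured under their older symbols Brp44l (Mpc1) and Brp44 (Mpc2). They differed by 0.20 (limma adjusted p = 0.866, groups without overlap) and 0.13 (limma adjusted p = 0.866).

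Of the genes for the traffic and turnover of GLUT proteins, 13 were tested, 10 with a higher and 3 with a lower mean (median 0.11, with 0 in the methods' selection). The largest difference in this list was that of Txnip, which promotes the removal of GLUT1 from the surface. It measured -1.01, -0.16 and -0.27 before and -1.46, -1.38 and -0.93 after heartbeat initiation, a difference of -0.78 (SE 0.27, limma adjusted p = 0.534) and of -0.56 with the slide as a block. Post-heartbeat 3 lay just above pre-heartbeat 1, and on each slide the post-heartbeat arrays were below the pre-heartbeat arrays. Vamp2, a SNARE protein of GLUT4 vesicles, was highest in the list at 0.43 (limma adjusted p = 0.866), with overlap.

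Of the hexokinases, which trap glucose inside the cell, and lactate dehydrogenases, which interconvert pyruvate and lactate, 6 were tested. Hk1 was 0.66 higher (SE 0.16, limma adjusted p = 0.266) and Ldhb 0.70 higher (SE 0.17, limma adjusted p = 0.241), both in the methods' selection and without overlap. The lowest was Ldhd at -0.18 (limma adjusted p = 0.866).

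Of 22 HIF-1 targets outside glycolysis, 18 were tested, 14 with a higher and 4 with a lower mean, a median difference of 0.17 against -0.03 over all tested probes. In the methods' selection were 0 of the 18. The groups did not overlap in 6 of the 18 (33.3%), all higher, against 5.38% of all probes: Egln3 (0.58), Pdk1, which restrains pyruvate dehydrogenase (0.54), the mitophagy receptor Bnip3 (0.44), Ankrd37 (0.40), the collagen hydroxylase subunit P4ha2 (0.31) and Higd1a (0.13). They are named here after their values were seen. Egln1, the oxygen-sensing hydroxylase PHD2, had the largest difference, 1.12 (SE 0.49, limma adjusted p = 0.751), with overlap and with 0.73 under the slide as a block. Ndrg1 was lowest at -0.31 (limma adjusted p = 0.866). Hif1a itself differed by 0.14 (limma adjusted p = 0.920), and its sign turned without pre-heartbeat 1 (-0.18).

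**Figure D4:**
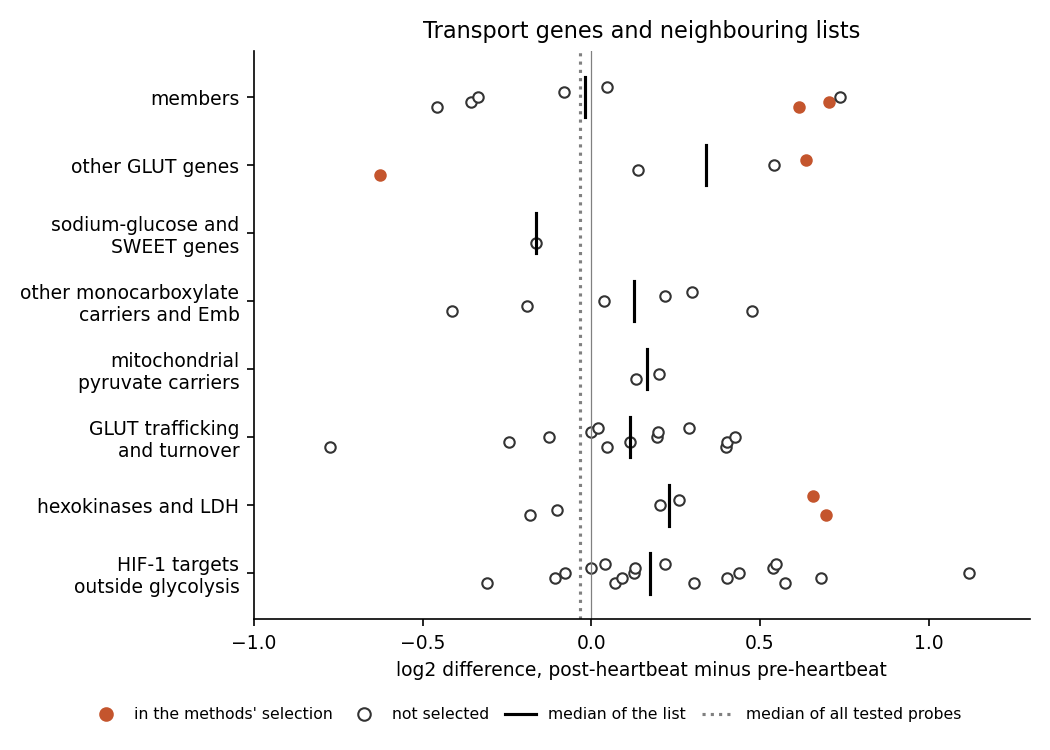
Log2 difference, post-heartbeat minus pre-heartbeat (horizontal axis), for the tested members and the tested genes of 7 lists (vertical axis), with 1 point per gene. Filled points are in the methods' selection, bars are list medians and the dotted line is the median of all tested probes; the filled points are Slc2a4 and Slc16a3 among the members, Slc2a6 and Slc2a12 among other GLUT genes, and Hk1 and Ldhb.

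By a rule set for the 2 members with the largest differences, the genes with the most similar course over the 6 arrays were sought among 11919 tested genes, by the root mean square difference of log2 signals centred on each gene's mean. Nearest to Slc2a4 were Egln3, an oxygen-sensing hydroxylase (0.09 log2 units), Ppp1r3b, which targets a phosphatase to glycogen (0.09), and RGD1307461 (0.10). Egln3 was 0.58 higher (limma adjusted p = 0.237), Ppp1r3b 0.74 higher (limma adjusted p = 0.237) and RGD1307461 0.60 higher (limma adjusted p = 0.220), each without overlap. Ppp1r3b was well above background on 1 of 3 pre-heartbeat arrays. With normexp Egln3 differed by 0.51, Ppp1r3b by 0.094 and RGD1307461 by 0.30. Nearest to Slc2a8 were Kcnk3, a potassium leak channel (0.06), Gprin1 (0.09) and Gp5, a platelet glycoprotein (0.10). Kcnk3 was higher by 0.81, Gprin1 by 0.79 and Gp5 by 0.56, with overlap and with lower signals on slide 2, as for Slc2a8 itself. With normexp Gprin1 differed by 0.089 and Slc2a8 by 0.22. With 6 arrays many genes have a similar course, and likeness over them carries no test. These genes were chosen for their likeness to a member, so their direction and overlap follow from the choice and are not a further result.

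Because HIF-1 binds the core letters ACGTG or GCGTG, these were searched for on both strands in the promoters of the members, with overlapping matches counted as 1. Promoters were the 300 bases from 250 before to 50 after the RefSeq start on GRCr8, and 7 of the 9 members had an entry (Slc2a3 and Slc2a4 had none). The letters were found in 5 of the 7, and in 41.6% of all 33469 promoters. Bsg held 5 matches, Slc2a1 4, Slc16a1 3, and Slc2a2 and Slc16a7 1 each, while Slc2a8 and Slc16a3 held 0; 4 or more were found in 2.09% of all promoters. The 250 bases before the start are shown for Slc2a1 and Slc16a3, both known HIF-1 targets, because the former differed little between the groups and holds matches while the latter was higher and holds none; matches are in capitals.
Slc2a1, chr5:138002272-138002521, plus strand: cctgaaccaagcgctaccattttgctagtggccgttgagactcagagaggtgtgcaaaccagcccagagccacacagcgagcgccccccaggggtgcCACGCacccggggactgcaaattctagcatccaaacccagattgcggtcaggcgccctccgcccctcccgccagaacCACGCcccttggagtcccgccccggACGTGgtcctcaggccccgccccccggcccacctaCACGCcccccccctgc
Slc16a3, chr10:106712078-106712327, plus strand: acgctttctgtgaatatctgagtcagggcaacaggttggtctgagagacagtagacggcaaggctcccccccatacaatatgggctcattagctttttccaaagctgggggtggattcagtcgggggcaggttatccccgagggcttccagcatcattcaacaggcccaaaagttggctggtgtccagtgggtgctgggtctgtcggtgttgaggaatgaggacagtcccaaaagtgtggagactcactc
In Slc2a1 the matches began 153, 76, 51 and 16 bases before the start. A match is a description of the sequence and not a binding site, and the lack of one says only that these letters are not in this window.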

How the data were processed

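Gene expression was measured in 6 heart primordium samples on 1-color Agilent rat arrays. The authors deposited processed signals, background-subtracted intensities from Feature Extraction 10.7.3.1 (version per the labels) that were not normalized between arrays, and a table of linear ratios, shifted to the 75th percentile and divided by a baseline per probe, which served as an alternative. For this report, outlier and control spots were left out, log2 signals were set relative to the 75th percentile of each array, and spots were averaged per probe. Of 30367 probes, 19299 were tested, those well above background (in at least 50% of spots) on all 3 arrays of at least 1 group; 0 spots were saturated. Groups were compared with limma 3.58.1 in R 4.3.3, with Benjamini-Hochberg adjustment and a threshold of 0.05. The procedure was tested on simulated data. The number of arrays limits the precision. The members and lists were chosen with earlier results of these data known. Named genes are the members, Txnip, Emb, the pyruvate carriers, Hif1a, list genes in the methods' selection, the largest rise and fall of each list, and the 3 genes most like each of the 2 members with the largest differences. For a gene with several probes the brightest was used. Alternatives were the slide or the replicate number as a block, normexp (offset 50), quantile normalization, other percentiles and filters, the deposited ratios, other tests and thresholds, and leaving out each array.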

Additional observations from a re-analysis of the deposited data

How the results depend on the processing

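Of the members, 0 passed limma in each alternative run, against 2 at an unadjusted p under 0.05 without a block. The 6 members other than Slc2a2 and Bsg kept the sign of their difference in all 16 alternatives. Some of the 16, such as the replicate block and the probe filters, leave the difference itself unchanged and could not turn its sign. The count of probes past limma was 27 and became 312 with the slide as a block, 50 with normexp, 14 with quantile normalization, 15 with a percentile taken over the probes detected on every array, 1 with no filter, 13 with the authors' ratios, 45 with an intensity trend, 0 with the methods' test and Benjamini-Hochberg adjustment (1352 at an unadjusted limma p under 0.05), and 0 to 2 when 1 array was left out. The same-numbered arrays of the groups had correlations of 0.65, -0.28 and 0.49 between their deviations. Across the groups, arrays on the same slide had 0.49 to 0.65 and arrays on different slides -0.73 to -0.28. The values thus follow the slide and cannot tell whether the numbers pair the samples. The replicate block gave 144 probes past limma and kept 1 member in the methods' selection. The methods' selection held 2 members, but 1 with the slide as a block (Slc16a3 lost), 1 with normexp (Slc2a4 lost), 0 at a threshold of 2 fold, and 1 to 2 when 1 array was left out, and was reduced to 1 by leaving out any array other than pre-heartbeat 1. Over all probes it held 587, but 281 with normexp, 232 at 2 fold, and 367 to 719 when 1 array was left out (367 without post-heartbeat 2); of the fixed lists it held 4 genes, but 2 with normexp and 0 at 2 fold. When 1 array was left out, the log2 difference of Slc2a2 ran from -1.32 to 0.55, that of Bsg from -0.026 to 0.10 and that of Hif1a from -0.18 to 0.53. Where a count moved, the cause was not tested. Signals near background limit what can be said of Slc16a7, and those of Slc2a4 and Slc2a8 are dim. Among the list genes, the signals of Slc2a6, Slc2a10 and Slc16a8 are dim too.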
